A study of Mus musculus with 13 samples.

Results

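The replication-dependent histone genes were taken as all genes of the deposited count table whose symbol begins with Hist1h, Hist2h, Hist3h or Hist4h, with no filter on their level. The rule gave 69 genes of 53653 in the table. They comprised 6 genes for the linker histone H1, 19 for H2A, 19 for H2B, 12 for H3 and 13 for H4. Of these, 63 had at least 1 count in some library and 55 had enough counts to be tested.

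The counts came from RNA-seq of mouse medulloblastoma, a tumour of the cerebellum, after a sort for GFP-positive cells. All 13 libraries carried overexpressed SmoM2, a constitutively active Smoothened that switches on Sonic Hedgehog signalling. KO metastasis (replicates 3, 4, 6 and 7) were spinal metastases from SmoM2-Kmt2dCf/Cf mice, labelled as Kmt2d KO and 5 to 8 weeks old, and KO primary (replicates 3, 4, 6 and 7) were primary tumours with the same genotype, label and age range. Control primary (replicates 3 to 7) were primary tumours with SmoM2 alone, from mice 6 to 16 weeks old. Kmt2d encodes an enzyme that methylates lysine 4 of histone H3, chiefly at enhancers. The Cre driver is not named in the labels, and nothing in the labels ties the libraries to individual mice, so the p-values describe the spread between libraries, which may be technical.

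Replication-dependent histone genes supply the bulk of histone protein when DNA is copied in S phase, and they lie in clusters of many near-identical, intron-poor copies. Their mRNAs normally end just after a short stem-loop that is bound by the stem-loop binding protein SLBP, and not in a poly(A) tail, although some of the genes can also give longer polyadenylated mRNAs. H2A, H2B, H3 and H4 form the core of the nucleosome, and H1 binds the DNA between nucleosomes. In medulloblastoma driven by Sonic Hedgehog, the dividing cells resemble granule cell precursors. The labels leave unsaid whether RNA was selected by its poly(A) tail.

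In the GENCODE M21 annotation of GRCm38, 55 members lie on chromosome 13 between 21715763 and 23934851, 10 on chromosome 3, 3 on chromosome 11 and 1 on chromosome 6. Of the 69 genes, 67 are protein-coding and 63 have a single exon. The longest annotated transcript contained a stem-loop in 45 members. It ran on for at least 100 bases past the stem-loop in 23 of them and for fewer in 22, and the other 24 transcripts held no match. The stem-loops of 6 members that the results turn on are shown here as they stand in their transcripts, with the 16 stem-loop bases in capitals and the following 14 bases in lower case.
Hist1h3d: GGCTCTTTTCAGAGCCacccccgttttcta
Hist1h3c: GGCTCTTTTAAGAGCCacctaagatgtcat
Hist1h1e: GGCTCTTTTCAGAGCCacccacaactctca
Hist1h2ae: GGCTCTTTTCAGAGCCattcacttaattca
Hist1h4d: GGCCCTTTTCAGGGCCactaccttctcact
Hist1h4i: GGCCCTTTTTAGGGCCaccacaaaatcaaa
The 16 bases of Hist1h3d, Hist1h1e and Hist1h2ae occurred unchanged in 25 members, 10 of them H2A, 7 H2B, 5 H3 and 3 H1 genes. Those of Hist1h4d occurred in 7 members, all of them H4 genes, and those of Hist1h4i in 2 H4 genes. The annotated transcripts of Hist1h1b and Hist2h2be, also described here, held no stem-loop match. Only the annotated transcript was searched, of 743 bases for Hist1h1b, so a stem-loop past an annotated end would be missed.

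The promoters of 62 members were matched in RefSeq (GRCm38.p6). In the 250 bases before the start, on either strand, the TATA box TATAAA was found in 46.8% of members, against 12.4% of all 32851 promoters, and the CCAAT box CCAAT in 82.3%, against 33.9%. The octamer ATTTGCAT was found in 7 of 18 H2A and 6 of 16 H2B promoters and in no H1, H3 or H4 promoter, against 1.60% of all promoters. The element AAACACA stood in 5 of 6 H1 promoters, against 6.25% of all promoters, and GGTCCG, part of the H4 site II element, in 9 of 12 H4 promoters, against 6.72%. The sequence TTTCGCGC, which resembles an E2F site, was found in 11.3% of members and in 0.256% of all promoters, and TTTGGCGC in no member and 0.417% of all. Neighbouring H2A and H2B genes can share promoter bases, so these are not independent sequences. The windows from 150 bases before to 30 bases after the start are shown for the only member called in any comparison and for the most counted H1 and H4 genes. Capitals mark matches to the TATA box, the CCAAT box, the H1 element and the H4 element on either strand.
Hist1h3d (chr13:23575613-23575792, + strand, GRCm38.p6): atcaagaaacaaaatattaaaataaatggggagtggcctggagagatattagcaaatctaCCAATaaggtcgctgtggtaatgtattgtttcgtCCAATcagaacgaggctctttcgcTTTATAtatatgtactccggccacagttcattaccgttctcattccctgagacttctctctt
Hist1h1b (chr13:21780596-21780775, - strand, GRCm38.p6): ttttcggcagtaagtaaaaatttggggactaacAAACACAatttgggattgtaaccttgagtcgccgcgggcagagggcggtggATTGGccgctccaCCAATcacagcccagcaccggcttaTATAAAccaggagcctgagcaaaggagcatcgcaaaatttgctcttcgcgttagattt
Hist1h4d (chr13:23581418-23581597, + strand, GRCm38.p6): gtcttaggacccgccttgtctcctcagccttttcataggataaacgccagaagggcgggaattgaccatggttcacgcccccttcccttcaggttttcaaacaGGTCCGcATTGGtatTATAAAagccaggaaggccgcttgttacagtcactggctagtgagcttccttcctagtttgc
Hist1h3d held CCAAT boxes and the letters TATAAA on the reverse strand. Hist1h1b held the AAACACA element with CCAAT and TATA boxes, and Hist1h4d the GGTCCG element beside CCAAT and TATA boxes. A match describes the letters of the window and is no measure of binding.

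Libraries held 23.5 to 41.4 M counts, which limits the precision for members with few counts. Markers of granule cell precursors were present in every library, with a summed level of 3593 to 4873 CPM (counts scaled to the library total, here after TMM) in KO metastasis, 3625 to 4446 CPM in KO primary and 2489 to 3289 CPM in control primary. Kmt2d was at 105 to 131 CPM in KO metastasis, 91.7 to 168 CPM in KO primary and 78.1 to 175 CPM in control primary, and counts over the whole gene need not fall when part of it is deleted. Olfactory and vomeronasal receptor genes, which these cells are not known to use, reached 565 and 349 CPM of the unscaled total in KO metastasis 6 and 7, 723 in KO primary 7 and 1752 in control primary 3, against 6.08 to 83.5 in the remaining 9 libraries. KO metastasis 3 had 2.06% of its counts on mitochondrial genes, against 0.633% to 0.876% elsewhere. Control primary 5, 6 and 7 expressed Xist, at 330 to 483 CPM, and no other library exceeded 0.913 CPM, so the KO groups and the controls differ in sex composition. In bulk samples, fewer cells of a type and less RNA per cell cannot be told apart.

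The members together drew 0.0273% to 0.134% of all counts of a library. Their summed level was 1411, 662, 532 and 454 CPM in KO metastasis 3, 4, 6 and 7, 460, 474, 508 and 392 CPM in KO primary 3, 4, 6 and 7, and 630, 275, 353, 403 and 400 CPM in control primary 3 to 7. KO metastasis 3 was the highest library and control primary 4 the lowest, and the ranges of the 3 groups overlapped. The mean was 765 ± 439 CPM in KO metastasis (SD, n = 4), 458 ± 48.6 CPM in KO primary (SD, n = 4) and 412 ± 132 CPM in control primary (SD, n = 5). Without KO metastasis 3, the mean of the metastases was 549 ± 105 CPM (SD, n = 3). As a log2 ratio of means, KO primary exceeded control primary by 0.15, and KO metastasis exceeded KO primary by 0.74 and control primary by 0.89.

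**Figure D1:**
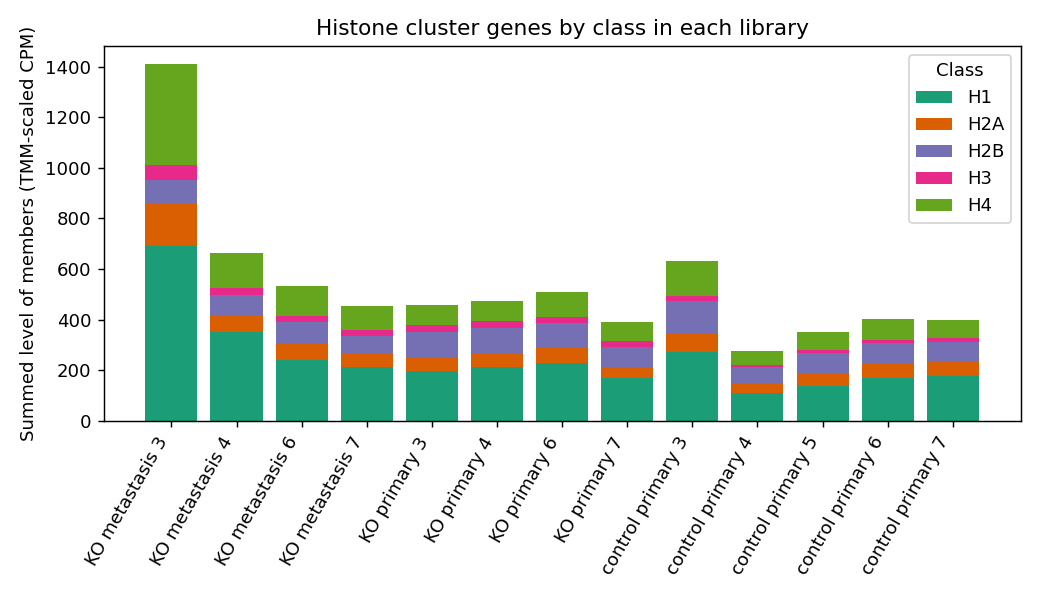
Summed level of the members in each of the 13 libraries, in TMM-scaled CPM on the y axis, stacked by histone class. KO metastasis 3 stands at 1411 CPM and every other library between 275 and 662 CPM.

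By class, H1 and H4 genes took most of the counts. H1 summed to 374 ± 220 CPM in KO metastasis, 203 ± 24.9 CPM in KO primary and 174 ± 61.3 CPM in control primary, and H4 to 187 ± 144 CPM, 82.8 ± 9.16 CPM and 83.6 ± 31.4 CPM in the same groups. Without KO metastasis 3 the H4 sum in KO metastasis was 116 ± 21.1 CPM (SD, n = 3). H2A summed to 87.4 ± 52.1 CPM in KO metastasis, 52.5 ± 9.37 CPM in KO primary and 56.8 ± 11.9 CPM in control primary. H2B summed to 82.8 ± 11.1 CPM in KO metastasis, 94.2 ± 8.46 CPM in KO primary and 84.0 ± 25.3 CPM in control primary (SD, n = 4, 4 and 5 for each class). H3 was the class whose sum did not overlap between either KO group and the controls. It summed to 59.1, 28.0, 23.8 and 22.99 CPM in KO metastasis 3, 4, 6 and 7, to 30.2, 28.6, 23.2 and 22.5 CPM in KO primary 3, 4, 6 and 7, and to 19.8, 8.68, 14.2, 13.8 and 14.9 CPM in control primary 3 to 7. The full separation depended on Hist1h3d, whose levels are given below. With those levels taken off, control primary 3 overlapped with both KO groups. Every KO library still lay above each of the other controls.

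A few genes held most of the reads. Hist1h1b held 21.7% of the members' counts, Hist1h4d 18.7%, Hist1h1e 16.9%, Hist3h2ba 7.09% and Hist1h2ae 6.52%, or 70.9% together. Per length of the transcript, mean levels over the 13 libraries were 156 CPM per kb for Hist1h1b, 89.4 for Hist1h4d, 61.5 for Hist3h2ba, 49.3 for Hist1h2ae and 47.1 for Hist1h1e, against a median of 2.05 CPM per kb over the 55 tested members.

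Many members share sequence with other annotated genes, so reads from the shared stretches may not have been placed. Of all 50-base stretches of a member's transcript, a median of 45.9% occurred in no other annotated gene, and 35 of 69 members were under 50%. The 6 members at 0 counts in all libraries were Hist1h2aa, Hist2h2aa1, Hist2h2aa2, Hist2h2bb, Hist2h3b and Hist2h3c1. All of these but Hist1h2aa had no unique stretch, and no other member had none. For Hist2h2aa1, Hist2h2bb, Hist2h3b and Hist2h3c1 the gene sharing most was one that overlaps the member itself. Their lack of unique sequence thus need not come from other histone copies. The mean level had a median of 0.864 CPM per kb in the 20 members under 20% unique, 2.001 in the 25 members from 20% to under 60%, and 3.06 in the 24 members at 60% or more. Across the 69 members the Spearman correlation of uniqueness and level was 0.40, given as a description, since the genes share the same libraries and sequence families. The handling of reads with several places is unknown here, so a low value for a member with little unique sequence is uncertain. In all, 25 members overlap another annotated gene, among them Hist1h1e and Hist1h2be, which overlap each other on the same strand, and Hist3h2a, which overlaps Trim17.

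**Figure D2:**
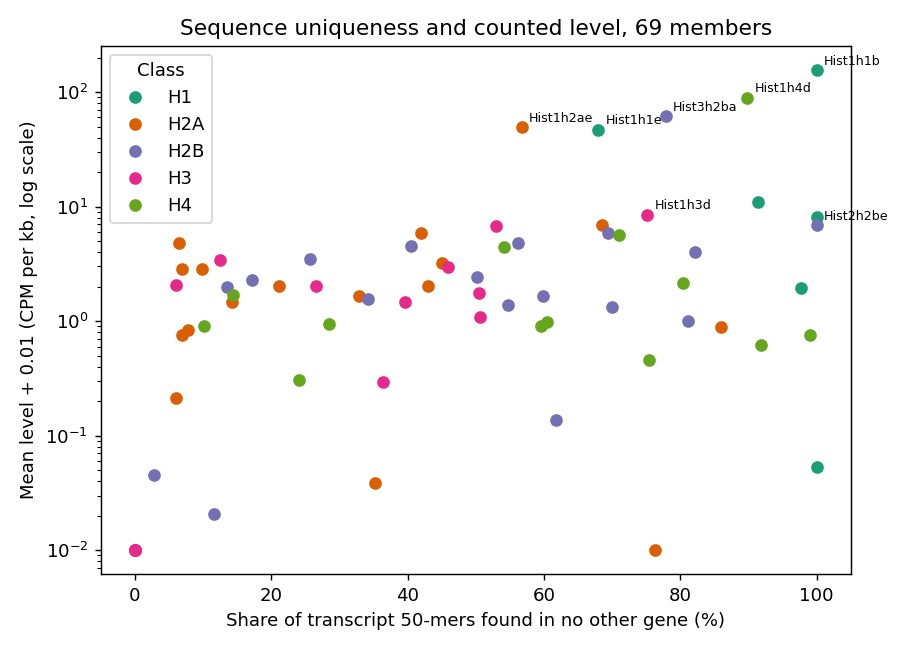
Each point is 1 of the 69 members, coloured by class, with the share of its transcript's 50-base stretches found in no other gene on the x axis and its mean level plus 0.01 in CPM per kb on a log y axis. Members with no unique stretch sit at 0 counts, and the most counted genes are all above 50% unique.

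For KO primary against control primary, which asks what accompanies loss of Kmt2d within the primary tumour, 1 of 55 tested members was called, against 2.93% of all genes tested (edgeR quasi-likelihood test, Benjamini-Hochberg adjusted p below 0.05). That gene was Hist1h3d, one of the many genes for the canonical H3 protein, at chr13:23575763-23577011 on the + strand. It is a gene of 1 exon whose transcript runs 752 bases past the stem-loop, and 75.2% of its 50-base stretches are unique. Its level was 18.7, 17.5, 10.5 and 9.64 CPM in KO primary 3, 4, 6 and 7, against 5.44, 2.49, 5.09, 6.70 and 5.92 CPM in control primary 3 to 7. Every KO primary library lay above every control. Hist1h3d rose by 1.46 ± 0.30 on the log2 scale (SE) in KO primary, with an edgeR adjusted p of 0.0165.

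In the metastases Hist1h3d was above the controls too. It stood at 18.5, 14.6, 11.4 and 11.2 CPM in KO metastasis 3, 4, 6 and 7, again above every control. Against control primary it rose by 1.44 ± 0.30 on the log2 scale in KO metastasis (SE, edgeR adjusted p = 0.0168), in a comparison that shares the 5 controls with the one of the primary tumours. KO metastasis and KO primary differed by -0.02 ± 0.31 on the log2 scale for Hist1h3d, and their ranges overlapped. The raw counts behind these levels were 324 to 551 in KO metastasis, 356 to 717 in KO primary and 84 to 220 in control primary.

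The Hist1h3d calls were close to the threshold. For KO primary against control primary the adjusted p became 0.0751 without KO primary 3 and 0.0798 without KO primary 4. In the metastases it became 0.0627 without KO metastasis 3 and 0.0512 without KO metastasis 4. With the Xist level as a covariate it became 0.0737 and 0.0752 for these comparisons in the same order, while the log2 changes were 1.88 and 1.86. Control primary 3 and 4, the 2 controls that like the KO libraries lack Xist, were at 5.44 and 2.49 CPM of Hist1h3d. Leaving out KO metastasis 3 and the 4 libraries with over 100 receptor CPM left Hist1h3d at 14.6 CPM in KO metastasis (n = 1), 10.5 to 18.7 CPM in KO primary (n = 3) and 2.49 to 6.70 CPM in control primary (n = 4).

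**Figure D3:**
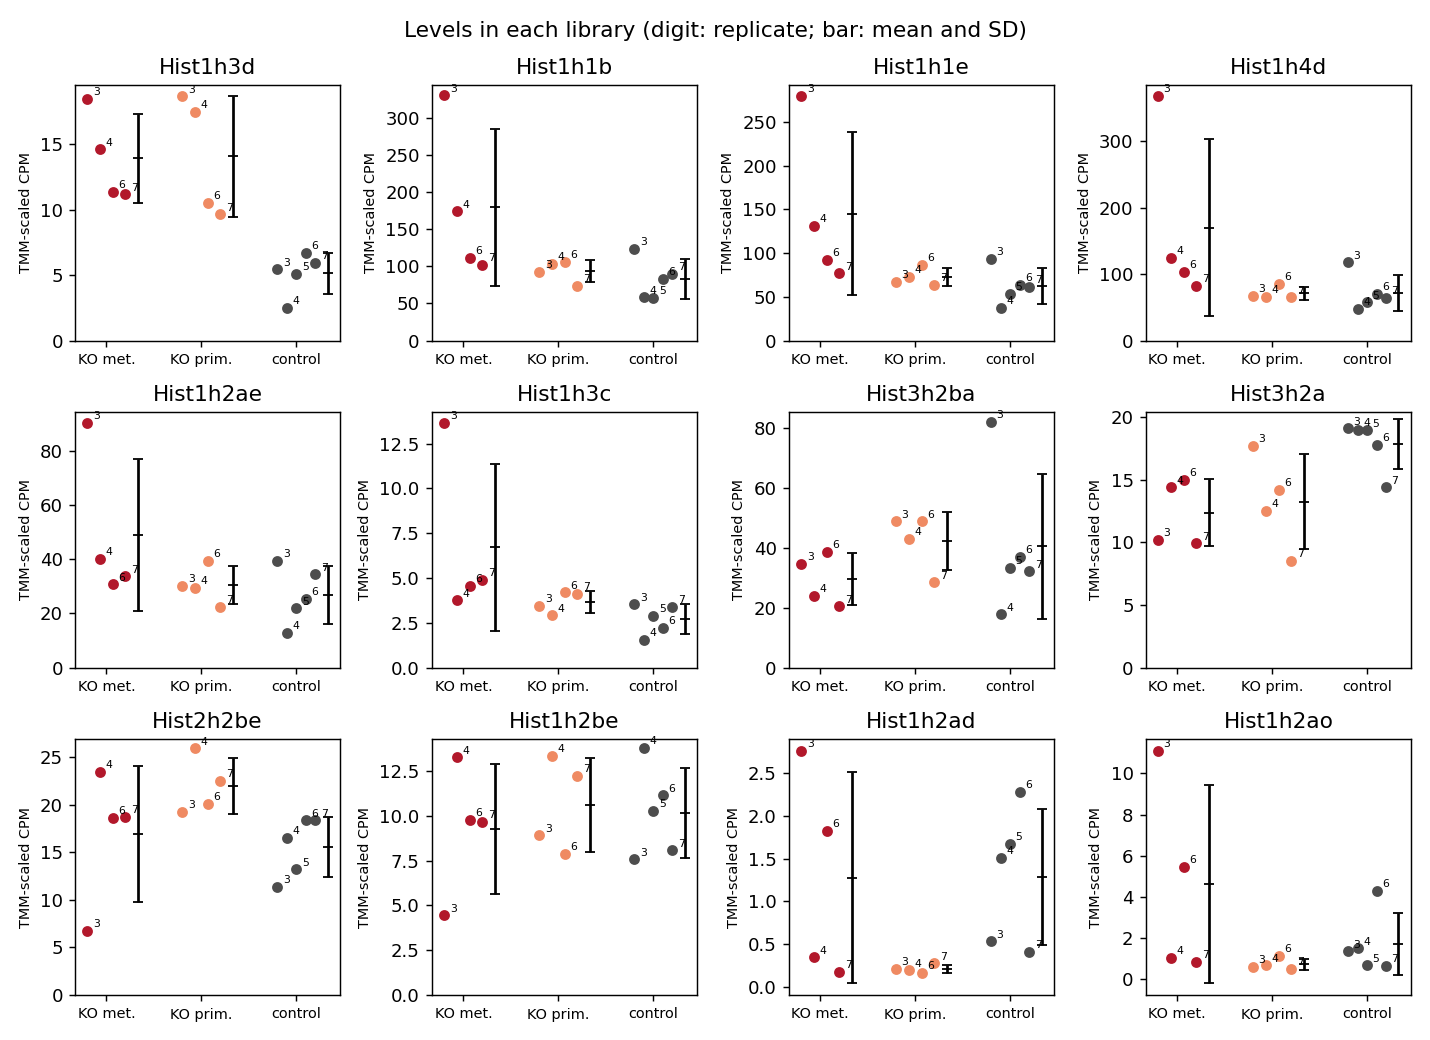
Levels of 12 members in each library, in TMM-scaled CPM, with 1 point per library and its replicate number, and bars for mean and SD (n = 4 KO metastasis, 4 KO primary, 5 control primary). Hist1h3d lies between 9.64 and 18.7 CPM in the KO libraries and between 2.49 and 6.70 CPM in the controls, while Hist1h1b, Hist1h1e, Hist1h4d, Hist1h2ae and Hist1h3c stand apart in KO metastasis 3.

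No other member was called between KO primary and control primary. Of the 55 tested, 40 had a positive and 15 a negative log2 change, with a median of 0.20, against -0.05 over all genes tested. The median was 0.39 over 10 H3 genes, 0.28 over 15 H2B genes, 0.23 over 5 H1 genes, 0.13 over 12 H4 genes and -0.06 over 13 H2A genes. At an unadjusted p below 0.05 there were 4 members, or 7.27%, against 13.6% of all genes. The groups did not overlap in 5 members that were higher in KO primary (Hist1h2bh, Hist1h3d, Hist1h3e, Hist1h4j and Hist2h2be), against 3.57% of all genes, and in 1 that was lower, Hist1h2ad, against 3.85%.

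Hist1h2ad, an H2A gene beside Hist1h3d, was named after its values were seen. It stood at 2.77, 0.345, 1.83 and 0.173 CPM in KO metastasis 3, 4, 6 and 7, then 0.208, 0.190, 0.159 and 0.271 CPM in KO primary 3, 4, 6 and 7, and 0.532, 1.51, 1.67, 2.29 and 0.404 CPM in control primary 3 to 7. KO metastasis 3 and 6 and control primary 4, 5 and 6 were high, and the others low. The log2 change of -2.61 ± 0.84 in KO primary (SE) had an edgeR adjusted p of 0.133, and with DESeq2, which called 9.18% of all genes, it passed, at -2.65 and an adjusted p of 0.0162. The counts were 6 to 10 in KO primary and 14 to 71 in control primary, and 32.9% of its 50-base stretches are unique.

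For KO metastasis against KO primary, which sets the metastasis against the primary tumour of the same genotype, no member was called by edgeR, against 0.00449% of all genes, and DESeq2 also called none. At an unadjusted p below 0.05 there were 6 members, or 10.9%, all higher in KO metastasis, against 3.23% of all genes. Of the 55 tested, 48 had a positive and 7 a negative log2 change, with a median of 0.69, against -0.0038 over all genes tested. The class medians were 1.19 for H2A, 0.78 for H1, 0.71 for H4, 0.69 for H3 and 0.51 for H2B. The groups did not overlap in 2 members, Hist1h2ak and Hist1h4k, both higher in KO metastasis, against 0.683% of all genes. The H2A gene Hist1h2ak was at 2.26, 0.955, 1.16 and 0.978 CPM in KO metastasis 3, 4, 6 and 7, against 0.234, 0.544, 0.793 and 0.758 CPM in KO primary 3, 4, 6 and 7.

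Between KO metastasis and control primary, 1 of 55 members was called, Hist1h3d, against 3.08% of all genes. The log2 change was positive in 49 and negative in 6, with a median of 0.98, against -0.04 over all genes tested. These values too include KO metastasis 3. Without it, the mean sum of all members but the 5 most counted was 153 CPM in KO metastasis, against 129 CPM in control primary. For the 5 most counted members it was 396 CPM, against 283 CPM. At an unadjusted p below 0.05 there were 18 members, 17 of them higher in KO metastasis, or 32.7%, against 14.2% of all genes. The groups did not overlap in 5 members, all higher in KO metastasis (Hist1h2ak, Hist1h2bh, Hist1h3c, Hist1h3d and Hist1h4j), against 2.81% of all genes.

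**Figure D4:**
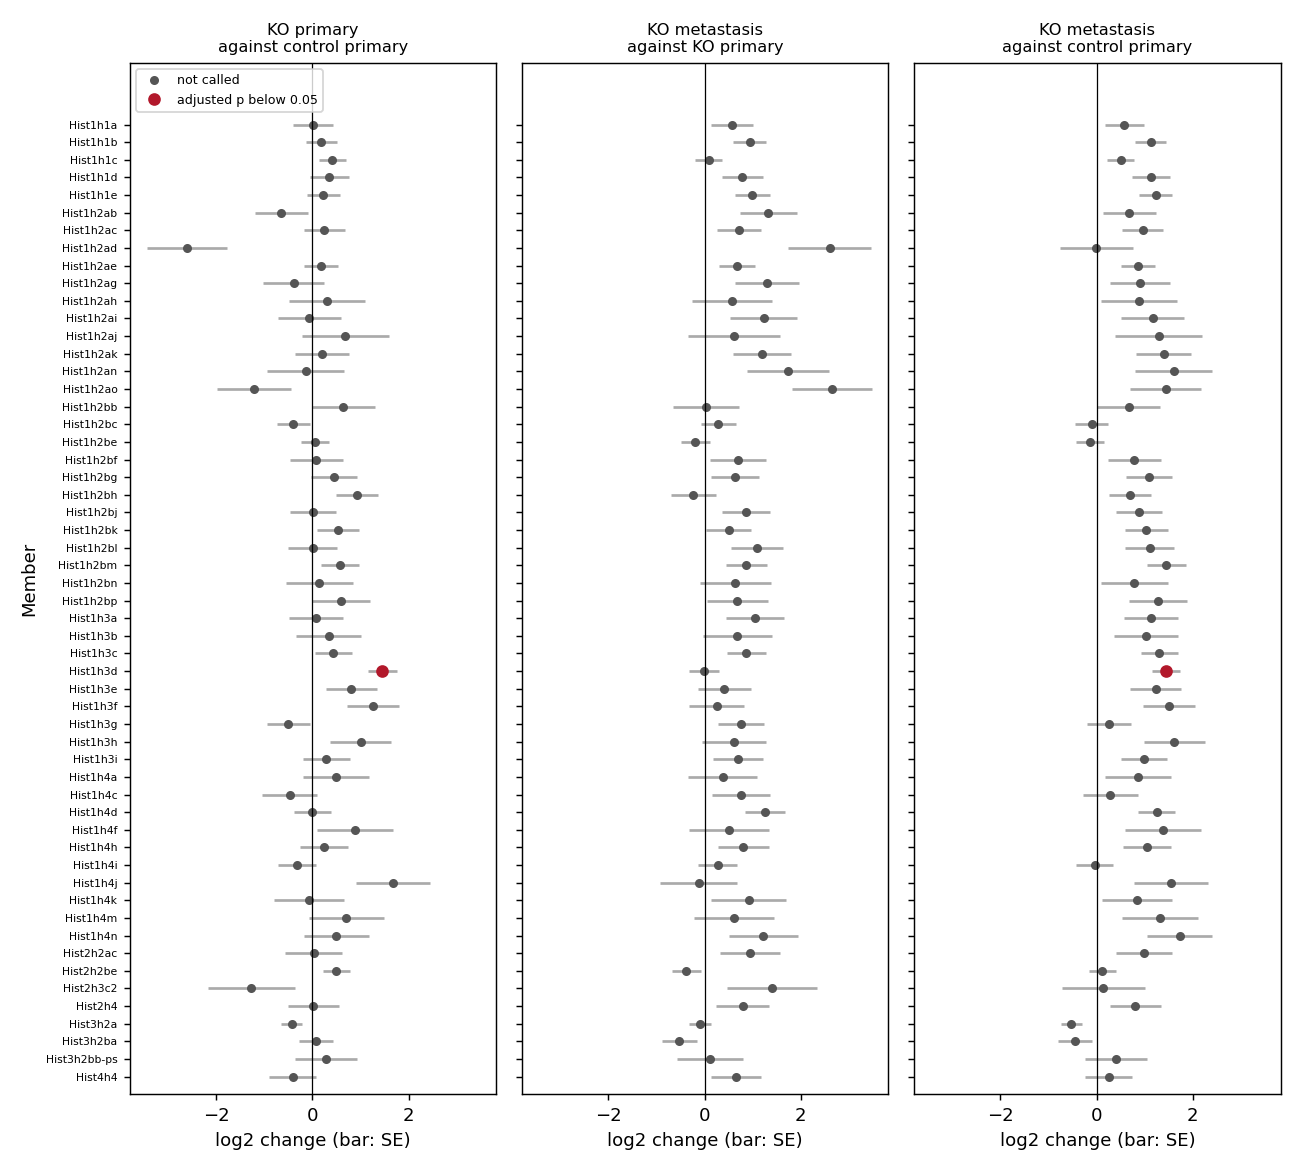
Fitted log2 change (point) with its SE (bar) for the 55 tested members in the 3 comparisons, on 1 shared x axis. Hist1h3d, in red, is the only member with an adjusted p below 0.05, in both comparisons with control primary, which use the same 5 control libraries.

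One library stood apart among the metastases. KO metastasis 3 held the highest level of 45 of the 55 tested members. Its level was a median of 2.87 times the mean of the other 3 metastases over the tested members, and over 2 times in 43 of them (78.2%). Over all genes tested the median of the same ratio was 0.854, and 9.91% were over 2 times. The median ratio was 3.54 for H2A, 3.18 for H3, 3.01 for H4, 2.43 for H2B and 2.42 for H1 genes. Only 4 tested members were lower in KO metastasis 3 than the mean of the other metastases: Hist2h2be at 0.331 times, Hist1h2be at 0.409 times, Hist3h2a at 0.779 times and Hist1h4k at 0.895 times.

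**Figure D5:**
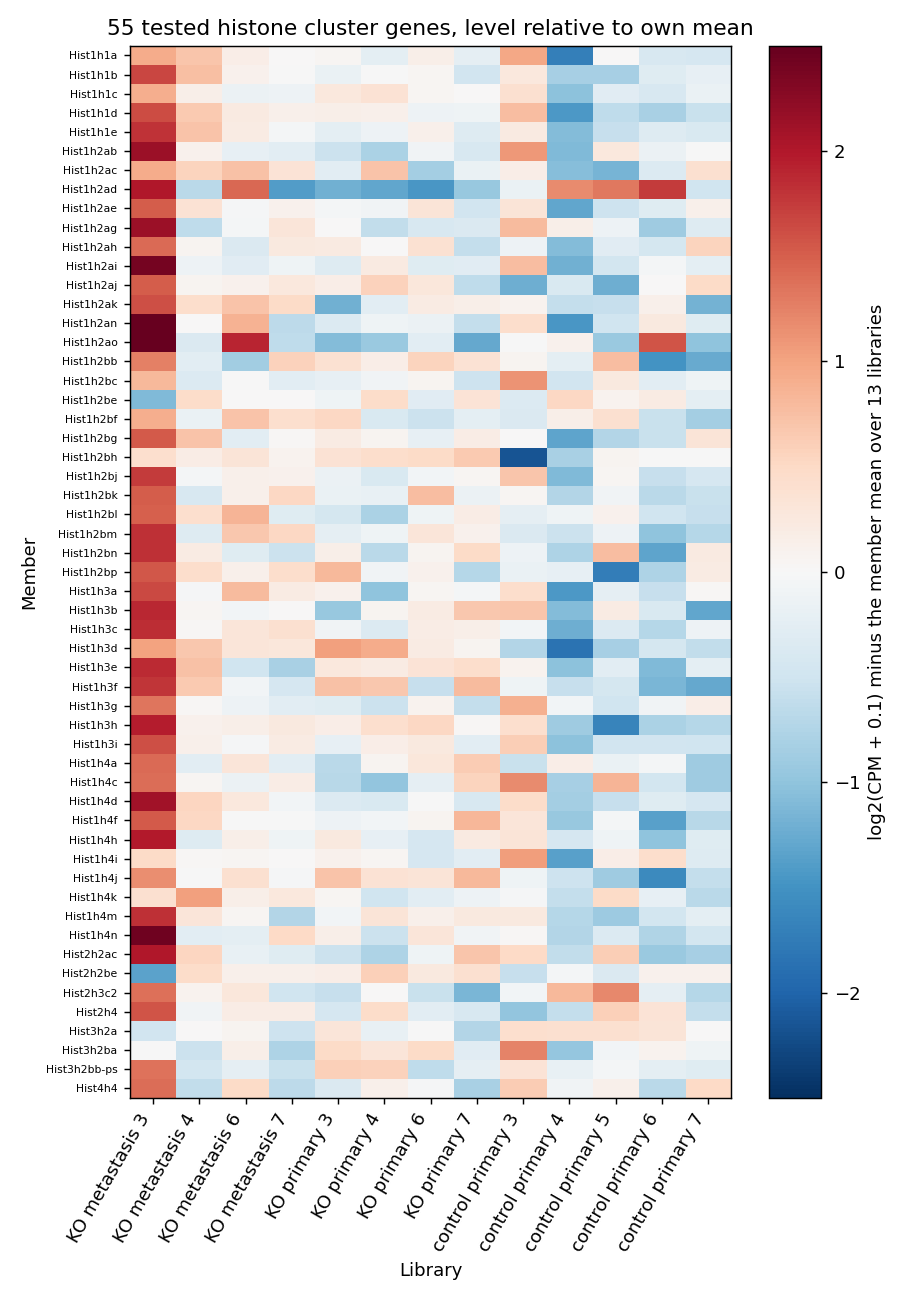
Level of the 55 tested members (rows) in the 13 libraries (columns), as log2(CPM + 0.1) minus the member's mean over all libraries, red above and blue below. The first column, KO metastasis 3, is the highest library for 45 members, and control primary 4 is the lowest for 19.

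Within H1, Hist1h1b and Hist1h1e encode somatic linker histones of dividing cells. Hist1h1b was at 330, 174, 112 and 102 CPM in KO metastasis 3, 4, 6 and 7, 92.4, 103, 106 and 73.6 CPM in KO primary 3, 4, 6 and 7, and 124, 58.0, 57.7, 83.5 and 89.8 CPM in control primary 3 to 7. The metastases overlapped with both other groups. The log2 change of Hist1h1b for KO metastasis against control primary was 1.12 ± 0.32 (SE, edgeR adjusted p = 0.0861) and 0.18 ± 0.32 (adjusted p = 0.947) in KO primary against control primary. Hist1h1e was at 280, 131, 92.1 and 77.0 CPM in KO metastasis 3, 4, 6 and 7, 67.0, 73.1, 86.9 and 63.8 CPM in KO primary 3, 4, 6 and 7, and 93.7, 37.4, 53.4, 63.995 and 61.6 CPM in control primary 3 to 7. Its log2 change in KO metastasis against control primary was 1.23 ± 0.34 (SE, edgeR adjusted p = 0.0713). The testis-type H1 gene Hist1h1t had 14 counts in all, 12 of them in control primary 3, the library with the highest receptor level.

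Within H2A, Hist1h2ae was at 90.4, 40.3, 30.8 and 33.8 CPM in KO metastasis 3, 4, 6 and 7, 30.2, 29.5, 39.5 and 22.4 CPM in KO primary 3, 4, 6 and 7, and 39.5, 12.8, 21.9, 25.4 and 34.5 CPM in control primary 3 to 7. The groups overlapped, and KO metastasis 3 was the highest library. Hist3h2a, in the small cluster on chromosome 11, was at 10.2, 14.4, 14.96 and 9.93 CPM in KO metastasis 3, 4, 6 and 7, 17.7, 12.5, 14.2 and 8.53 CPM in KO primary 3, 4, 6 and 7, and 19.1, 19.0, 18.9, 17.8 and 14.4 CPM in control primary 3 to 7. Its log2 difference was -0.53 ± 0.22 (SE, edgeR adjusted p = 0.268) in KO metastasis against control primary. The near-identical Hist1h2ao and Hist1h2ap, with 6.50% and 6.93% of unique stretches, were named after their values were seen. Hist1h2ao was at 11.1 and 5.48 CPM in KO metastasis 3 and 6 and at 4.31 CPM in control primary 6, and no more than 1.51 CPM elsewhere. Hist1h2ap was at 14.1 CPM in KO metastasis 3 and at 2.31 CPM in control primary 4, and below 1 CPM elsewhere.

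Within H2B, Hist3h2ba was at 34.8, 24.1, 38.8 and 20.6 CPM in KO metastasis 3, 4, 6 and 7, 48.9, 43.1, 49.0 and 28.6 CPM in KO primary 3, 4, 6 and 7, and 82.2, 17.9, 33.4, 37.0 and 32.3 CPM in control primary 3 to 7. Here control primary 3 was the highest library. Hist2h2be was at 6.72, 23.5, 18.6 and 18.8 CPM in KO metastasis 3, 4, 6 and 7, 19.3, 25.9, 20.1 and 22.5 CPM in KO primary 3, 4, 6 and 7, and 11.4, 16.5, 13.2, 18.3 and 18.4 CPM in control primary 3 to 7. KO metastasis 3 was the lowest of all 13 libraries for Hist2h2be, and all KO primary libraries lay above all controls, at 0.50 ± 0.28 on the log2 scale (SE, edgeR adjusted p = 0.515). Hist1h2be was likewise lowest in KO metastasis 3, at 4.45 CPM, and at 7.57 to 13.8 CPM in the other libraries. The testis-type H2B gene Hist1h2ba stayed at 0.152 CPM or below, and the testis-type H2A gene Hist1h2aa had no counts.

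Within H3, the second most counted gene was Hist1h3c. It was at 13.6, 3.77, 4.57 and 4.89 CPM in KO metastasis 3, 4, 6 and 7, 3.46, 2.91, 4.21 and 4.12 CPM in KO primary 3, 4, 6 and 7, and 3.54, 1.54, 2.89, 2.22 and 3.39 CPM in control primary 3 to 7. Every metastasis lay above every control, and the metastases overlapped with KO primary. The log2 change of Hist1h3c was 1.31 ± 0.38 (SE, edgeR adjusted p = 0.0949) in KO metastasis against control primary. All 10 tested H3 genes had a positive log2 change in that comparison, with a class median of 1.18.

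Within H4, Hist1h4d was at 368, 125, 104 and 82.5 CPM in KO metastasis 3, 4, 6 and 7, 67.6, 66.2, 85.9 and 65.4 CPM in KO primary 3, 4, 6 and 7, and 118, 47.5, 57.7, 70.1 and 64.2 CPM in control primary 3 to 7. KO metastasis 3 was 3.55 times the mean of the other metastases. The log2 change of Hist1h4d was 1.25 ± 0.41 (SE, edgeR adjusted p = 0.9997) in KO metastasis against KO primary and 1.25 ± 0.38 (adjusted p = 0.110) in KO metastasis against control primary. Hist1h4i was at 5.39, 3.87, 3.97 and 3.83 CPM in KO metastasis 3, 4, 6 and 7, 4.14, 3.94, 2.83 and 3.14 CPM in KO primary 3, 4, 6 and 7, and 8.02, 1.42, 4.29, 5.21 and 3.01 CPM in control primary 3 to 7, and the 3 groups overlapped.

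Leaving out the 4 libraries with over 100 receptor CPM left KO metastasis 3 and 4, 3 KO primary and 4 control libraries. In that fit 10 of 56 members were called in KO metastasis against control primary, all higher in KO metastasis, against 6.3% of all genes tested. They were Hist1h1b, Hist1h1d, Hist1h1e, Hist1h2ae, Hist1h3c, Hist1h3d, Hist1h3e, Hist1h3f, Hist1h3h and Hist1h4d, with log2 changes from 1.48 to 2.60. KO metastasis 3 was then 1 of 2 metastasis libraries. Without KO metastasis 3 and with all other libraries, no member was called in that comparison, against 1.64% of all genes. Leaving out control primary 3 alone gave 6 called members, against 6.0% of all genes, and leaving out KO metastasis 7 alone gave 2, against 2.08% of all genes. The receptor genes had at most 0.293 CPM per kb in a library, against a median of 0.848 to 4.61 CPM per kb over the members, and 7 to 13 of the 69 members in a library were at or below the receptor level per kb. Beyond leaving out libraries and fitting the receptor level as a covariate, no estimate of this background in the members' values is given here.

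Other genes of the histone supply were compared as lists. None of 15 tested genes for histone mRNA processing was called in any comparison, and their median log2 change was 0.16 between KO primary and control primary, -0.06 between KO metastasis and KO primary, and 0.09 between KO metastasis and control primary. The log2 change was positive in 13, 4 and 10 of the 15 genes in the same order. Slbp, whose product binds the stem-loop, was at 198, 268, 256 and 295 CPM in KO metastasis 3, 4, 6 and 7, 260, 290, 306 and 250 CPM in KO primary 3, 4, 6 and 7, and 201, 221, 205, 251 and 248 CPM in control primary 3 to 7. KO metastasis 3 was the lowest library for Slbp. Srrt, a cap-associated factor, averaged 215 ± 27.9 CPM in KO metastasis, 217 ± 24.5 CPM in KO primary and 202 ± 22.1 CPM in control primary, and Cpsf1, a subunit of the cleavage factor, 182 ± 39.7, 200.2 ± 26.4 and 210 ± 61.4 CPM in these groups. Npat, picked for its known role and not by its level, whose product activates histone genes at the G1/S transition, was at 56.7, 80.0, 57.1 and 67.7 CPM in KO metastasis 3, 4, 6 and 7, 70.4, 66.1, 60.4 and 75.8 CPM in KO primary 3, 4, 6 and 7, and 26.5, 62.7, 62.2, 73.8 and 63.8 CPM in control primary 3 to 7.

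None of 11 replacement histone genes, whose products can also be deposited outside S phase, was called. Their medians were 0.08, 0.14 and 0.17 for the 3 comparisons in the order given for the processing genes. In that order 6, 7 and 8 of them had a positive log2 change. H3f3b, a gene for the replacement H3.3, averaged 3152 ± 294 CPM in KO metastasis (SD, n = 4), 3204 ± 490 CPM in KO primary (n = 4) and 3405 ± 526 CPM in control primary (n = 5). H2afz averaged 1557 ± 501 CPM in KO metastasis, with 2295 CPM in KO metastasis 3, 1309 ± 179 CPM in KO primary and 1217 ± 277 CPM in control primary, and H1f0, a linker histone of resting cells, 1160 ± 128, 1356 ± 260 and 1279 ± 259 CPM. None of 16 histone chaperone genes was called, with medians of 0.31, -0.07 and 0.23 and a positive log2 change in 15, 5 and 14 genes. The most counted were Rbbp4, at 636 ± 102 CPM in KO metastasis, 666 ± 64.5 CPM in KO primary and 579 ± 67.0 CPM in control primary, Ssrp1, at 488 ± 83.9, 503 ± 43.4 and 421 ± 61.6 CPM, and Rbbp7, at 413 ± 183, 507 ± 38.9 and 404 ± 39.5 CPM. None of 25 S-phase genes was called, with medians of 0.31, -0.13 and 0.17. Their log2 change was positive in 24, 4 and 21 genes, against 45.6%, 49.6% and 46.6% of all genes tested. Of the replicative helicase genes, Mcm6 averaged 631 ± 221 CPM in KO metastasis, 796 ± 120 CPM in KO primary and 531 ± 107 CPM in control primary, and Mcm7 626 ± 76.6, 678 ± 77.5 and 549 ± 92.1 CPM. In the same groups the ribonucleotide reductase gene Rrm2 averaged 484 ± 69.3, 528 ± 66.8 and 390 ± 87.8 CPM. The S-phase genes summed to 4431, 6955, 5441 and 5935 CPM in KO metastasis 3, 4, 6 and 7, 5782 to 6728 CPM in KO primary and 4222 to 5933 CPM in control primary. KO metastasis 3, the library with the highest histone sum, had the lowest S-phase sum of the metastases.

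Markers of other cells moved between the libraries too. The 6 oligodendrocyte markers summed to 159, 301, 1763 and 742 CPM in KO metastasis 3, 4, 6 and 7, 50.6 to 80.1 CPM in KO primary and 121 to 310 CPM in control primary. Of these, Mbp was called higher in KO metastasis against KO primary, the only 1 of 22265 genes called there. Mbp and Mobp rose in KO metastasis against control primary, and Opalin fell in KO primary against control primary. The 7 microglia and macrophage markers summed to 24.0, 8.46, 146 and 112 CPM in KO metastasis 3, 4, 6 and 7, 2.45 to 11.97 CPM in KO primary and 6.11 to 52.2 CPM in control primary. KO metastasis 3, where the histone genes were highest, was the lowest metastasis for the oligodendrocyte markers. The 6 granule neuron markers summed to 758 to 1203 CPM in KO metastasis, 759 to 821 CPM in KO primary and 1439 to 2340 CPM in control primary, and 4 of the 6 fell in each KO group against control primary. The 5 oligodendrocyte precursor markers summed to 636 to 729 CPM in KO metastasis, 703 to 1131 CPM in KO primary and 1037 to 1438 CPM in control primary. Of these, Pdgfra, Cspg4 and C1ql1 fell in KO metastasis against control primary, where the sums did not overlap, and C1ql1 fell in KO primary. The 11 granule cell precursor markers, whose sums are given above, summed higher in every KO library than in every control. Of these, Atoh1 and Ccnd1 rose in KO primary against control primary, and Atoh1, Barhl1 and Ccnd1 rose in KO metastasis against control primary. The granule neuron and oligodendrocyte precursor sums thus had lower means where Hist1h3d was higher, between the KO groups and the controls. The granule cell precursor sum had a higher mean there. No marker of these lists was at 0 in all libraries, and their part in the result was not tested.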

How the data were processed

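RNA-seq of 13 libraries was deposited as 1 table of raw read counts per gene symbol. The tools listed in the submitters' processing notes, without their roles, are HTSeq 0.6.1, STAR 2.4 and DESeq2, and the build is mm10 (GRCm38). Cells were freed from the tumours with papain and sorted for GFP before TruSeq RNA library preparation, per the labels' protocols. Strand setting and multi-mapper handling: not given in the sources used here. Members and lists were chosen with earlier results of these data known.

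One edgeR 4.0.16 fit in R 4.3.3 covered all 13 libraries (filterByExpr with minimum count 10 and minimum total 15, library totals recomputed after the filter, TMM, quasi-likelihood test, Benjamini-Hochberg over 22265 genes). Levels are TMM-scaled CPM. Sums over members carry no test. The fit was also run on simulated data, and the outcome is not given here. Alternatives were DESeq2 1.42.0, other scaling, no filter, a replicate block, Xist or receptor level as a covariate, and libraries left out. A first fit kept the library totals from before the filter and was replaced after its calls were seen. Members named are those called, the 2 most counted per class and 3 testis-type genes; others are said to be chosen later. Uniqueness was counted over 50-base stretches of GENCODE M21 transcripts, and promoters came from RefSeq GRCm38.p6.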

Additional observations from a re-analysis of the deposited data

Results flagged for a closer look

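In groups of 4 or 5 libraries, 48 sets of levels of the named members and class sums were examined for a library far from the rest of its group, of which chance flags about 1 in 20. There were 11 such values, 7 of them in KO metastasis 3. These were Hist1h2ae at 90.4 CPM, Hist1h3c at 13.6 CPM, Hist1h4d at 368 CPM, Hist1h4i at 5.39 CPM, the H2A sum at 165 CPM, the H3 sum at 59.1 CPM and the H4 sum at 402 CPM, each the highest of the 4 metastases. In KO primary 6, Hist1h4d was the highest of its group at 85.9 CPM, and so was the H4 sum at 96.5 CPM. In the controls, Hist3h2a was lowest in control primary 7, at 14.4 CPM, and the H2B sum was highest in control primary 3, at 127 CPM. The 7 values of 1 library and the class sums with their own leading genes are not independent of each other.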

How the results depend on the processing

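The number of members called was 1 in KO primary against control primary, and became 2 of 48 with DESeq2 (against 9.18% of all genes), 0 with the Xist covariate, 0 with the replicate block and 0 to 1 when single libraries were left out. In KO metastasis against control primary it was 1, and became 6 of 54 with DESeq2, which called 1639 of 20597 genes. The 6 members were Hist1h1b, Hist1h1e, Hist1h2bm, Hist1h3c, Hist1h3d and Hist1h4d. The number became 0 with the Xist covariate, 0 with the replicate block, 10 without the 4 libraries over 100 receptor CPM and 0 to 6 when single libraries were left out. It stayed 0 in KO metastasis against KO primary under all 22 alternatives. The log2 ratio of the summed levels of KO metastasis and control primary was 0.89 and became 1.53 without the 4 libraries. KO metastasis 3, at 1411 CPM, was then 1 of 2 metastases. With KO metastasis 3 alone left out, the mean sum of the metastases fell from 765 to 549 CPM. Control primary averaged 412 CPM and KO primary 458 CPM. Same-numbered libraries correlated in their deviations at -0.53 to 0.36 in the comparisons with control primary, and at 0.36, 0.49, -0.0047 and 0.68 for numbers 3, 4, 6 and 7 between KO metastasis and KO primary, where numbers 3 and 7 matched their own number best. Since not every pair correlated and the labels give no meaning to the number, it was not taken as a pairing. The adjusted p of Hist1h3d under the replicate block was 0.0716 in KO primary and 0.0683 in KO metastasis against control primary. Hist1h3d was called in 18 of 22 alternatives in each of these comparisons, including the first fit with library totals from before the filter. Over all genes DESeq2 called 1665 of 18132 for KO primary against control primary, where edgeR called 653 of 22265. For KO metastasis against control primary DESeq2 called 1639 of 20597, where edgeR called 685 of 22265.

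Some uncalled log2 changes of named members changed sign. In KO primary against control primary, Hist1h1b (0.18) was -0.0029 with the Xist covariate. Hist3h2ba (0.07) was -0.30 with the Xist covariate, -0.049 with unscaled totals and -0.10 to 0.49 with single libraries left out. Hist1h4d (-0.0033) was 0.0080 without the filter, 0.043 with the replicate block, 0.31 without the 4 libraries and -0.11 to 0.26 with single libraries left out. Hist1h4i (-0.32) was 0.079 without the 4 libraries and -0.54 to 0.015 with single libraries left out. In KO metastasis against KO primary, Hist1h3d (-0.02) was 0.014 with DESeq2, 0.017 with RLE factors, 0.034 with totals before the filter, 0.019 with the receptor covariate, 0.019 with the replicate block, 0.089 without the 4 libraries and -0.15 to 0.17 with single libraries left out, and Hist3h2a (-0.10) was -0.26 to 0.10. In KO metastasis against control primary, Hist2h2be (0.12) was -0.12 without the 4 libraries and -0.062 to 0.38 with single libraries left out, and Hist1h4i (-0.04) was 0.12 with the replicate block, 0.42 without the 4 libraries and -0.23 to 0.30 with single libraries left out. The cause was not tested. Of 660 values of named members under the alternatives, 596 kept direction and call, 43 changed sign, 13 became called and 8 lost a call. Totals of 23.5 to 41.4 M counts limit members with few reads, and stretches shared with other genes limit those with little unique sequence.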
